A study of Mus musculus with 37 samples.

Results

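The late 2-cell activated transcripts are the genes whose RNA stood highest in late 2-cell mouse embryos relative to every earlier stage sampled, and 274 of the 55401 genes in the deposited expression table are members. For each gene and stage, the level was the mean of the control and the knockout group mean of log2(FPKM + 1), where FPKM is fragments per kilobase of gene scaled to library size. Genes were ranked by the late 2-cell level minus the highest of the 4 earlier levels, the top 300 were taken, and 26 of these were left out by symbol, among them histone, ribosomal protein, Obox and Prame family genes. This difference, called the rise here, ran from 2.36 to 4.90 over the members, with a median of 2.78 on the log2 scale. These stage values chose the members and are given as a description, with no test. The last members inside the limit were Gm48306 and Pi4k2b and the first genes outside it were Usp22 and Rbm8a2, all with a rise of 2.36.

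The study deleted Bap1, which encodes a nuclear deubiquitinase that removes ubiquitin from histone H2A, in mouse oocytes. Control females were Bap1 flox/flox, and knockout females were Bap1 flox/flox with Gdf9-iCre, a Cre recombinase driven by the promoter of an oocyte growth factor gene, so both genotypes carried the floxed alleles. Fully grown oocytes (FGO) and MII eggs of both genotypes were sampled, and late 1-cell (L1C), early 2-cell (E2C) and late 2-cell (L2C) embryos came from eggs of such females and wild-type B6 males. The embryos called knockout here therefore had a mutant mother and a wild-type paternal Bap1 allele. Epiblast (EPI), visceral endoderm (VE) and extraembryonic ectoderm (EXE) were taken at embryonic day 6.5 from crosses to PWK males. The ages of the animals and the number of oocytes or embryos in a library are not given in the sources used here. FGO, MII, L1C and L2C had 2 control and 3 knockout libraries each, E2C had 3 of each, EPI and VE had 2 of each, and EXE had 1 control and 2 knockout libraries. The early libraries were made from total RNA and the embryonic day 6.5 libraries from poly(A) RNA.

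In the mouse, the fertilized egg at first runs on RNA stored during oocyte growth. Transcription from the embryonic genome starts weakly before the first cleavage and becomes strong in the late 2-cell embryo, when genes for transcription factors, ribosome assembly, nucleotide synthesis and cell surface proteins are switched on while stored maternal RNA is degraded. This second, larger wave is commonly called major zygotic genome activation.

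Bap1 itself was between 16.3 and 29.9 FPKM in the control early libraries and between 3.76 and 11.7 FPKM in the knockout ones, and all knockout libraries lay below all control libraries at every early stage. All 9 oocyte genes of the marker list reached 1 FPKM in FGO, where they summed to 3171 to 3360 FPKM in control libraries. Of 9 granulosa and cumulus cell genes, 2 reached 1 FPKM there. The 9 oocyte genes reached 1 FPKM in every other early group too, so this count does not tell the early stages apart. Summed granulosa and cumulus markers were 5.34 to 7.21 FPKM in control and 1.90 to 2.697 FPKM in knockout E2C, and 2.33 to 3.21 against 2.14 to 2.31 FPKM in L2C. In L2C, summed oocyte markers stood at 456 to 483 FPKM in control and 755 to 886 FPKM in knockout libraries, and 7 morula and blastocyst markers summed to 48.9 to 51.8 against 25.5 to 29.5 FPKM. The non-coding RNA gene Gm23935 took 20.2% to 23.1% of all FPKM in control L2C and 15.3% to 17.3% in knockout L2C. The part of these differences in the results below was not tested. Nothing states that the libraries of a group came from separate animals or cultures, so p-values measure the spread between these libraries, which may be technical.

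Before the 2-cell stage most members were at low levels. Their median level was 0.29 FPKM in control FGO, 0.25 in control MII and 0.21 in control L1C, and it was 2.16 FPKM in control E2C and 25.1 FPKM in control L2C. In knockout embryos the corresponding medians were 0.87 FPKM in E2C and 13.5 FPKM in L2C. Summed over members, control L2C libraries held 10399 and 10845 FPKM and knockout L2C libraries 5396, 5810 and 6413 FPKM, so the groups did not overlap. These sums were 2.41% and 2.68% of all FPKM in control and 1.41%, 1.57% and 1.69% in knockout libraries. In E2C the sums were 1038, 1154 and 1323 FPKM in control and 286, 507 and 586 FPKM in knockout libraries, again without overlap. In bulk samples such as these, fewer cells with a transcript and less RNA per cell cannot be told apart.

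**Figure D1:**
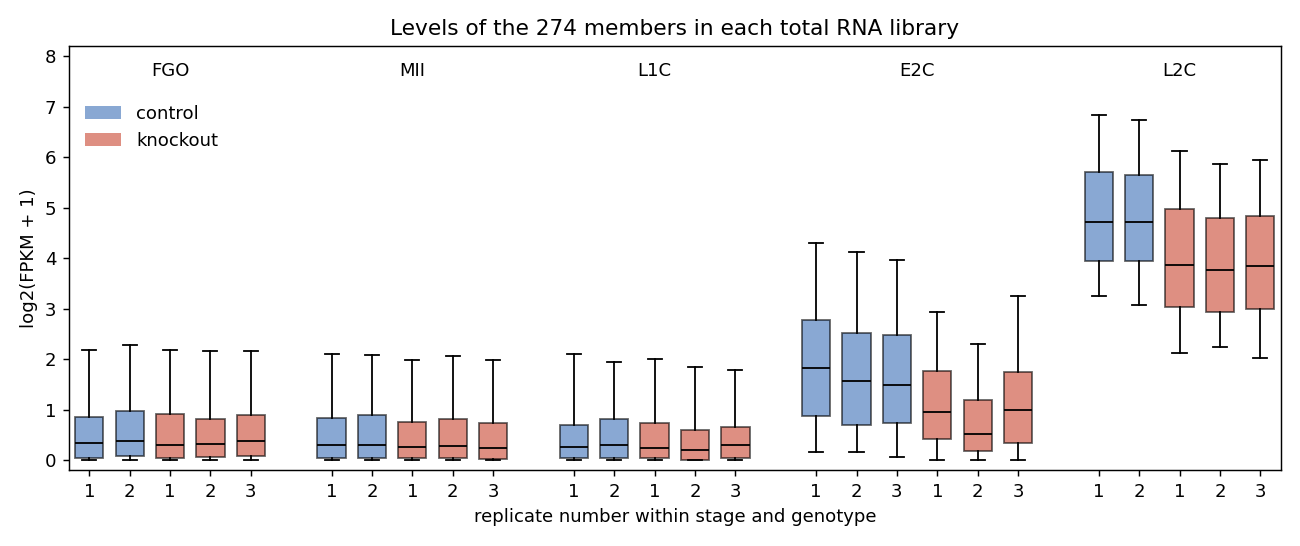
Levels of the 274 members, as log2(FPKM + 1), in each of the 26 total RNA libraries, with control in blue and knockout in red. Boxes span the quartiles, the line is the median and whiskers reach the 5th and 95th percentiles over members. Members are near 0 up to L1C, and knockout boxes sit below control boxes in E2C and L2C.

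Since the rule used L2C and E2C of both genotypes, the rise itself is no finding. For 236 members E2C was the highest of the earlier stages, for 22 it was FGO, for 12 MII and for 4 L1C. Control E2C already held a median of 8.14% of a member's control L2C level, with quartiles of 4.50% and 12.9%.

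The largest rises belonged to genes of varied roles. Hipk1, a nuclear kinase that phosphorylates transcription regulators, had the largest rise among named genes, 4.90 on the log2 scale. The others of the 8 largest among named genes were Exoc3l2 (4.63), a relative of exocyst subunits, Alppl2 (4.51), a membrane-anchored alkaline phosphatase, the zinc finger gene Zscan5b (4.35), Selenos (4.24), a selenoprotein of the endoplasmic reticulum, Folr1 (4.19), a folate receptor, Btbd18 (4.17) and the metal-binding protein gene Mt1 (4.15). In control L2C these 8 genes ran from 45.7 FPKM for Exoc3l2 to 213.5 FPKM for Mt1, and in control FGO none of them exceeded 2 FPKM.

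Knockout L2C embryos held less RNA of most members. Compared with control embryos, 182 of the 274 members fell, 5 rose and 87 were not called, by limma with Benjamini-Hochberg adjustment over all 15184 genes tested at a threshold of 0.05. Over all genes tested 17.2% were called lower and 17% higher, against 66.4% and 1.82% of the members. The median effect (knockout minus control, log2 scale) was -0.89 over members and 0.03 over all genes tested. In 231 members, or 84.3%, every knockout library lay below every control library, against 27.7% of all genes tested, and in 11 members every knockout library lay above, against 29.1%. The effect was below 0 in 256 members and above 0 in 18, against 47.2% and 52.3% of all genes tested. The median member in knockout L2C stood at 51.1% of its control mean, 128 members were under 50% of control, 15 under 25%, and 21 above control. When L2C was fitted alone, 217 members fell and 7 rose, with 19.5% and 19% of all genes called, and 180 of the 182 were among the 217. With a pseudocount of 0.1 the count of lower members was 85 when all early stages shared the estimate of spread and 216 when L2C was fitted alone. After every library was scaled to the same FPKM total, which turns FPKM into TPM, 105 members were lower. With the filter set at 1 TPM, 19980 in place of 15184 genes were tested, so the scaling and the genes tested changed together. The median effect over all genes was then 0.12, with 3302 genes higher and 1861 lower in place of 2588 and 2609.

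**Figure D2:**
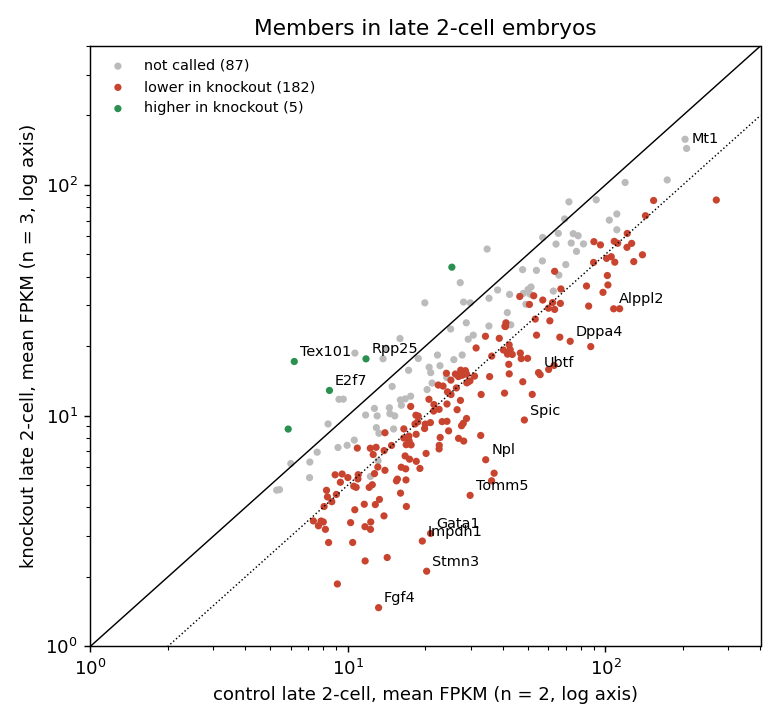
Mean FPKM of each member in control (n = 2) and knockout (n = 3) late 2-cell embryos on log axes. The solid line marks equal levels and the dotted line a knockout level at 50 percent of control. Of 274 members, 182 are called lower (red), 5 higher (green) and 87 not called (grey).

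The 8 members that fell most in knockout L2C, among named genes, kept between 10.5% and 19.8% of the control level. Stmn3, which encodes a microtubule-destabilizing phosphoprotein of the stathmin family, was at 20.7 and 19.8 FPKM in the control libraries and at 2.24, 2.46 and 1.64 FPKM in the knockout libraries. All knockout values lay far below both control values, with an effect of -2.78 (SE 0.17, limma, Benjamini-Hochberg adjusted p = 4.1e-10). Fgf4, a fibroblast growth factor that the inner cell mass later secretes, was at 12.4 and 13.9 FPKM in control and 2.43, 0.76 and 1.22 FPKM in knockout libraries. The groups did not overlap and the effect was -2.57 (SE 0.18, limma, Benjamini-Hochberg adjusted p = 2.63e-09). Gata1, a zinc finger transcription factor best known from red blood cell development, was at 20.1 and 21.8 FPKM in control and 2.84, 3.99 and 2.42 FPKM in knockout libraries. Its groups did not overlap either, with an effect of -2.44 (SE 0.16, limma, Benjamini-Hochberg adjusted p = 1.23e-09).

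Spic, an ETS family transcription factor, was at 43.1 and 53.8 FPKM in control and at 8.66, 7.58 and 12.5 FPKM in knockout L2C, so the highest knockout value was well under the lowest control value. Impdh1, 1 of a pair of isoenzymes that catalyse the rate-limiting step of guanine nucleotide synthesis, was at 20.4 and 18.5 FPKM in control and 3.07, 3.74 and 1.77 FPKM in knockout libraries. Npl, an enzyme that breaks down sialic acid, was at 34.1 and 34.5 FPKM in control and 5.93, 5.67 and 7.70 FPKM in knockout libraries, again without overlap. Tomm5, a small subunit of the mitochondrial protein import pore, had a control mean of 29.8 ± 8.04 FPKM (SD, n = 2) and a knockout mean of 4.51 ± 0.30 FPKM (SD, n = 3). Tmem150c, a membrane protein gene, fell from 14.2 ± 0.65 to 2.42 ± 0.65 FPKM with the same numbers of libraries. The effects of these 5 genes were -2.24 for Spic, -2.44 for Impdh1, -2.26 for Npl, -2.46 for Tomm5 and -2.17 for Tmem150c. By limma with Benjamini-Hochberg adjustment the largest adjusted p among them was 5.94e-07, for Impdh1.

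The 5 members that rose in knockout L2C did so by less than these 8 fell, and Tex101 rose most. Tex101, which encodes a GPI-anchored germ cell surface protein, was at 7.997 and 4.38 FPKM in control and 19.0, 18.2 and 14.3 FPKM in knockout libraries. Every knockout library was above both control libraries, with an effect of 1.37 (SE 0.24, limma, Benjamini-Hochberg adjusted p = 0.000129). E2f7, an atypical E2F repressor of cell cycle genes, had a control mean of 8.47 ± 0.30 FPKM (SD, n = 2) and a knockout mean of 12.8 ± 0.80 FPKM (SD, n = 3). Rpp25, a protein subunit of ribonuclease P, went from 11.8 ± 0.80 to 17.6 ± 2.51 FPKM, and Depdc1a, a mitotic gene, from 5.86 ± 0.21 to 8.74 ± 1.46 FPKM, with the same numbers of libraries. Gm49064, a predicted long non-coding RNA singled out after its values were seen, went from 25.3 ± 1.97 to 44.0 ± 6.62 FPKM. The adjusted p-values of these 4 genes ran from 0.0312 to 0.0478 in limma with Benjamini-Hochberg adjustment. The count of 5 moved to between 1 and 5 when 1 library at a time was left out, and 1 remained without control L2C replicate 2 or without knockout L2C replicate 2. Of the exonic 50-base words of Depdc1a, 60.8% also occur in other annotated genes, so its level is uncertain.

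**Figure D3:**
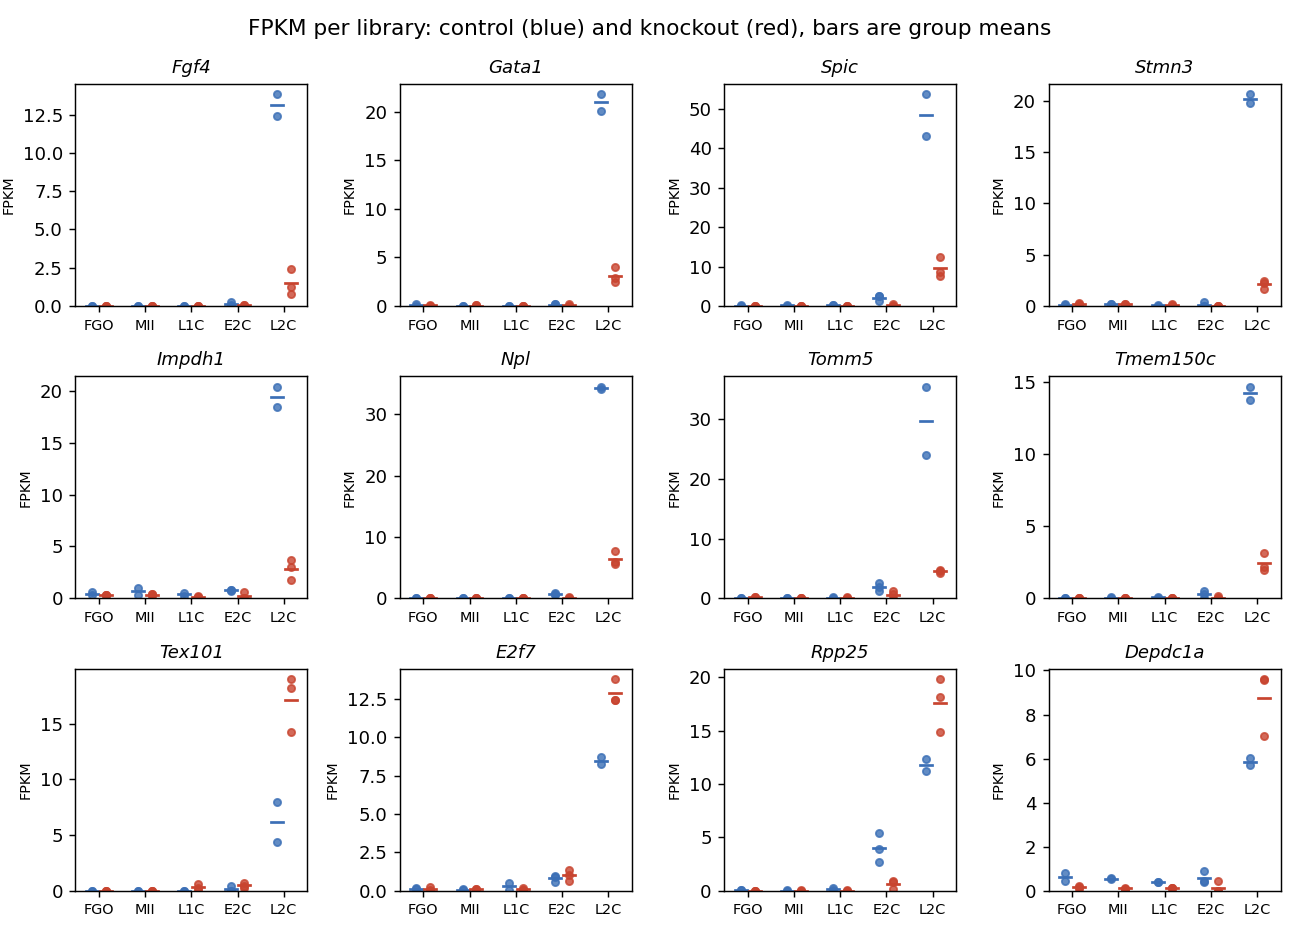
FPKM of the 8 members that fell most and 4 of the 5 that rose in knockout late 2-cell embryos, in each total RNA library, with control in blue and knockout in red. Each point is 1 library and each bar the mean of its group. At L2C the knockout points lie below the control points for the first 8 genes and above them for the last 4.

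The upstream sequences of 4 members that fell most and 2 that rose are given to show what lies before their start sites, each with the 250 bases before the RefSeq start in GRCm38.p6, read 5′ to 3′ on the gene's strand. Capitals mark matches to any of 11 motifs searched on both strands: the TATA box as TATAAA, the CCAAT box by these letters, the GC box as GGGCGG, the ETS type as CCGGAAG, the NRF1 type as GCGC and GCGC on either side of any pair of bases, the YY1 type as AAGATGGC, CRE as TGACGTCA, the E box as CACGTG, AP-1 as TGACTCA, the nuclear receptor type as AGGTCA and the OTX and OBOX type as TAATCC, where matches may overlap. The windows are chr7:144861136-144861385, plus strand, for Fgf4, chrX:7967911-7968160, minus strand, for Gata1, chr10:88683024-88683273, minus strand, for Spic, chr2:181314501-181314750, minus strand, for Stmn3, chr7:24672051-24672300, minus strand, for Tex101, and chr9:57503852-57504101, plus strand, for Rpp25.
Fgf4: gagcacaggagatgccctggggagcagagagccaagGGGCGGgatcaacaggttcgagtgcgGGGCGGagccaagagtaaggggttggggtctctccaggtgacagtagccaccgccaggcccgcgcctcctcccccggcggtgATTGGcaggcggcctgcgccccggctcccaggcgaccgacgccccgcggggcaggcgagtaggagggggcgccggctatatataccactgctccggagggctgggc
Gata1: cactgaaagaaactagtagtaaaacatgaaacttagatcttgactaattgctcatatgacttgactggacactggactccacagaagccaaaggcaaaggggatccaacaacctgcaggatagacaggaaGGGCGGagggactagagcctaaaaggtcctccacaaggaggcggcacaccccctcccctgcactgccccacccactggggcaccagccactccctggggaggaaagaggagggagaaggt
Spic: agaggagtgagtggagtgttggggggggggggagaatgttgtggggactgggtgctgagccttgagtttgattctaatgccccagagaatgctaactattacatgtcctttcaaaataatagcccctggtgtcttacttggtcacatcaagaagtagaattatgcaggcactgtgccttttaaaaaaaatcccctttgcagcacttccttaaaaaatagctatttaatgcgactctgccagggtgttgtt
Stmn3: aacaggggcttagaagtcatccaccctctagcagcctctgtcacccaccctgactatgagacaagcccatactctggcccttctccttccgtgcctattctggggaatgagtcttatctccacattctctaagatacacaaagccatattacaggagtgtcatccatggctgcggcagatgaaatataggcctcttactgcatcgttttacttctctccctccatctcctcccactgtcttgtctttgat
Tex101: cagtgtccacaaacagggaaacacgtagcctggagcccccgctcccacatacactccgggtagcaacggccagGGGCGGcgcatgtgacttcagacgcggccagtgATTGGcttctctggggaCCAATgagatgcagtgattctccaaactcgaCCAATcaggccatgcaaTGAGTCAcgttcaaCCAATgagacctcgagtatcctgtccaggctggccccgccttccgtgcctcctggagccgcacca
Rpp25: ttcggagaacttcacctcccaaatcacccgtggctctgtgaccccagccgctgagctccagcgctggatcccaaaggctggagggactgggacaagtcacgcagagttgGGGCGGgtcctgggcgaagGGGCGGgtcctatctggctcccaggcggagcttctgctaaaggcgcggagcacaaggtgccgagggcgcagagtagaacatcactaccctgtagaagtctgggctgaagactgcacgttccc
Fgf4 held 3 matches in these bases, Gata1 held 1, Spic and Stmn3 held 0, Tex101 held 6 and Rpp25 held 2. The 6 matches of Tex101 were 4 CCAAT boxes, 1 GC box and 1 AP-1 match. In the GENCODE annotation of the same build the genes themselves span chr7:144847367-144865243 for Fgf4, chrX:7959260-7978071 for Gata1, chr10:88674772-88685015 for Spic, chr2:181306459-181314500 for Stmn3, chr7:24668007-24676675 for Tex101 and chr9:57504026-57505448 for Rpp25. The printed windows of Fgf4, Gata1, Spic and Tex101 therefore lie inside the annotated spans, before an internal start. The end of the Rpp25 window, from 57504026 to 57504101, also lies inside its annotated span.

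Over the 190 members with a RefSeq promoter window of 300 bases (250 before to 50 after the start), the shares with each motif were set beside those of 9953 tested genes. Where a gene had several windows, only the first listed was used. A GC box was present in 65.8% of members' windows, in 61.4% of windows of tested genes and in 35.9% of windows of all 27025 genes that had any. For the CCAAT box the shares were 44.2%, 40.5% and 37.9%, and for the TATA box 8.42%, 7.8% and 14.2%. For the ETS type they were 16.8%, 18% and 9.12%, for the NRF1 type 11.6%, 13.8% and 6.43%, and for the E box 13.2%, 10.2% and 7.24%. For the nuclear receptor type they were 12.6%, 12.5% and 16%, for the OTX and OBOX type 9.47%, 6.15% and 7.16%, and for AP-1 3.16%, 3.37% and 5.17%. For the YY1 type they were 2.63%, 4.84% and 2.88%, and for CRE 2.63%, 3.21% and 1.88%. Median GC content was 60.8% in members, 60.3% in tested genes and 52.7% in all genes with a window. Among members with a window, 132 were lower in knockout L2C and 58 were not. Of the 11 motifs, 7 were less frequent and 4 more frequent in the first set. The shares were 8.33% and 8.62% for the TATA box, 40.2% and 53.4% for the CCAAT box, 62.9% and 72.4% for the GC box, 17.4% and 15.5% for the ETS type and 13.6% and 6.9% for the NRF1 type. They were 1.52% and 5.17% for the YY1 type and for CRE alike, 14.4% and 10.3% for the E box, 13.6% and 10.3% for the nuclear receptor type and 6.82% and 15.5% for the OTX and OBOX type. AP-1 was in 1 of 132 and 5 of 58 windows. These are descriptions of small counts, with no test.

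By role, most members that encode transcription factors fell in knockout L2C, as did most members as a whole. Roles were assigned after the member names were known, for the 218 members that are not predicted or clone-named gene models. Of 20 sequence-specific transcription factors, 14 fell, 1 rose and 5 were not called. Calls of lower made up 66.4% of all members and 166 of the 231 protein-coding ones. Counts by role, here and below, stand beside those shares, and differences between roles were not tested. Besides Gata1 and Spic, they included Crxos, a homeobox gene, which fell from 87.7 to 19.9 FPKM, and Gabpa, an ETS factor, from 109 to 46.2 FPKM. Zscan5b was at 89.5 and 90.3 FPKM in control and 52.5, 42.3 and 43.5 FPKM in knockout libraries. It fell by 0.96 (SE 0.23, limma, Benjamini-Hochberg adjusted p = 0.00276), and this call was lost with a pseudocount of 0.1, with TPM scaling and with a replicate block. Klf5, a Krüppel-like factor of early lineages, was not called, at 28.8 ± 3.80 FPKM in control (SD, n = 2) and 25.2 ± 2.36 FPKM in knockout (SD, n = 3). Zfp367, another zinc finger gene, had means of 20.96 and 15.35 FPKM in control and knockout and was not called.

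The general transcription machinery was represented by 7 members, of which 5 fell. Ubtf, the factor that opens ribosomal DNA for RNA polymerase I, was at 60.9 and 49.0 FPKM in control and 12.5, 16.98 and 16.6 FPKM in knockout libraries. The groups did not overlap, and the effect was -1.78 (SE 0.19, limma, Benjamini-Hochberg adjusted p = 4.58e-07). Gtf3c5, a subunit of the RNA polymerase III factor TFIIIC, fell from 42.3 to 15.2 FPKM, and Polr1c, a subunit shared by RNA polymerases I and III, from 26.4 to 13.2 FPKM. Cdk9, the kinase of the elongation factor P-TEFb, was at 41.6 FPKM in control and 27.9 FPKM in knockout and was not called.

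Of 10 ribosome biogenesis members, 8 fell. Znhit3, an assembly factor of small nucleolar ribonucleoproteins, was at 84.9 and 87.2 FPKM in control and 38.7, 27.0 and 23.9 FPKM in knockout libraries, without overlap. Nop16 fell from 28.9 to 9.71 FPKM and Ddx54, an RNA helicase, from 28.0 to 9.26 FPKM. Mak16, a factor of the large ribosomal subunit, was at 70.1 and 45.1 FPKM and was not called. In a list of 149 ribosome biogenesis genes chosen by symbol from the whole table, 9 are members, and of 148 tested 111 were lower and 3 higher in knockout L2C, with a median effect of -0.83. Without the members the count was 104 lower of 139 tested. In E2C the same list had 12 lower and 17 higher of 148, with a median effect of 0.06.

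Chromatin proteins numbered 17 members, of which 12 fell. Dppa4, a chromatin protein of pluripotent cells, was at 78.6 and 67.3 FPKM in control and 24.4, 18.8 and 19.7 FPKM in knockout libraries, without overlap. Set, a histone chaperone, was at 107 and 116 FPKM in control and 54.0, 56.2 and 57.3 FPKM in knockout libraries. Mta2, a subunit of the NuRD complex, fell from 102 to 40.5 FPKM and Suv39h1, a histone H3 lysine methyltransferase, from 18.8 to 9.95 FPKM. Hdac1, a histone deacetylase, was at 53.9 and 42.6 FPKM and was not called. Of the 50-base exonic words of Hdac1 35.5%, of Dppa4 31.3% and of Set 29.3% also occur in other annotated genes, which makes their levels uncertain.

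All 3 members of nuclear transport fell. Ipo7, an importin that carries ribosomal proteins into the nucleus, was at 66.4 and 53.9 FPKM in control and 17.5, 15.2 and 14.8 FPKM in knockout libraries. Tnpo3, which imports splicing factors, fell from 47.1 to 17.6 FPKM, and Kpna1, an importin alpha, from 62.3 to 30.9 FPKM. Of 15 RNA binding and processing members 11 fell and 1, Rpp25, rose.

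Enzymes of nucleotide, amino acid and one-carbon metabolism fell in 8 of 10 cases. Impdh2, the second isoenzyme beside Impdh1, was at 54.8 and 49.1 FPKM in control and 16.5, 9.01 and 11.6 FPKM in knockout libraries. Of its 50-base words, 39.3% also occur in other genes, so its level is uncertain. Gldc and Gcsh, 2 components of the glycine cleavage system, fell from 26.9 to 7.96 FPKM and from 121 to 53.6 FPKM. Prps1, which makes the ribose donor of nucleotide synthesis, was at 111 and 63.9 FPKM and was not called. Among the 60 tested genes of a nucleotide and one-carbon list, 27 were lower and 3 higher in L2C, and without the members 22 of 54 were lower. Without their members, other lists of the same kind ranged from more genes lower than higher to more higher than lower. Non-coding and predicted gene models had 279 lower and 566 higher of 3695, and adhesion and cytoskeleton genes 21 and 28 of 139. Glycolysis and pentose phosphate genes had 4 lower and 6 higher of 30. Chromatin regulators had 27 lower and 35 higher of 139, membrane transporters 31 and 33 of 195, ubiquitin and proteolysis genes 63 and 61 of 333, and chaperones 26 and 21 of 104. Cell cycle genes had 18 lower and 21 higher of 130, nuclear transport genes 19 and 11 of 62, splicing proteins 26 and 10 of 107, and RNA polymerase genes and their factors 46 and 12 of 110.

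Uptake of vitamins and nutrients was the role of 10 members, and 9 fell. Folr1 was at 60.9 and 50.6 FPKM in control and 15.5, 15.9 and 13.8 FPKM in knockout libraries, an effect of -1.82 (SE 0.19, limma, Benjamini-Hochberg adjusted p = 4.58e-07). Slc19a3, a thiamine transporter, was at 105 and 91.0 FPKM in control and 37.4, 26.7 and 38.5 FPKM in knockout libraries. Tfrc, the transferrin receptor, fell from 66.8 to 30.6 FPKM. Slc34a2, a phosphate transporter, was at 176 and 172 FPKM in control and 99.7, 104 and 111 FPKM in knockout libraries and missed the threshold (limma, Benjamini-Hochberg adjusted p = 0.0529), although the groups did not overlap.

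Of 15 lysosomal and glycan-processing enzymes, 12 fell, among them Npl, the N-glycan branching enzyme Mgat2 (66.5 to 21.9 FPKM) and the cathepsins Ctsc (26.5 to 10.6 FPKM) and Ctsl (108 to 56.9 FPKM). Of the words of Ctsl, 26.3% are shared. Of 8 lipid enzymes 6 fell, and of 9 cell surface proteins 7 fell and Tex101 rose. Alppl2 was at 109.8 and 105 FPKM in control and 33.1, 28.5 and 25.5 FPKM in knockout libraries, and its effect was -1.86 (SE 0.25, limma, Benjamini-Hochberg adjusted p = 9.05e-06). Of 11 signalling members 9 fell, among them Fgf4, Amhr2, a type II receptor for anti-Müllerian hormone (9.10 to 1.86 FPKM), and Hipk1 (95.6 to 54.9 FPKM).

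Of 13 ubiquitin ligases and adaptors 9 fell. Fbxo15, an F-box gene used as a marker of embryonic stem cells, was at 112 and 98.3 FPKM in control and 61.1, 37.0 and 48.3 FPKM in knockout libraries. Trim43a, Trim43b and Trim43c, closely related genes of 1 family, fell from 54.0 to 22.3, from 53.4 to 26.2 and from 29.4 to 14.0 FPKM. Between 45.9% and 58.6% of their words are shared with other genes, so reads may be split among them.

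Stress and protein folding members (10) and cell cycle members (9) had the lowest shares called, with 4 lower in each and 1 cell cycle gene, Depdc1a, higher. Selenos was at 109 and 92.8 FPKM in control and 52.7, 41.1 and 50.1 FPKM in knockout libraries and was called lower. Mt1 was at 199.6 and 214 FPKM in control and 158, 129.6 and 144 FPKM in knockout libraries, an effect of -0.52 that was not called (limma, Benjamini-Hochberg adjusted p = 0.469), although the groups did not overlap. When L2C was fitted alone the adjusted p of Mt1 was 0.00563. Bag5, a co-chaperone, was at 38.1 and 35.0 FPKM with overlapping libraries and was not called. Dnajb9, a chaperone of the endoplasmic reticulum, fell from 90.2 to 56.7 FPKM. Ccne1, which encodes cyclin E1, was at 160.05 and 147 FPKM in control and 88.5, 85.9 and 82.2 FPKM in knockout libraries and was called lower.

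**Figure D4:**
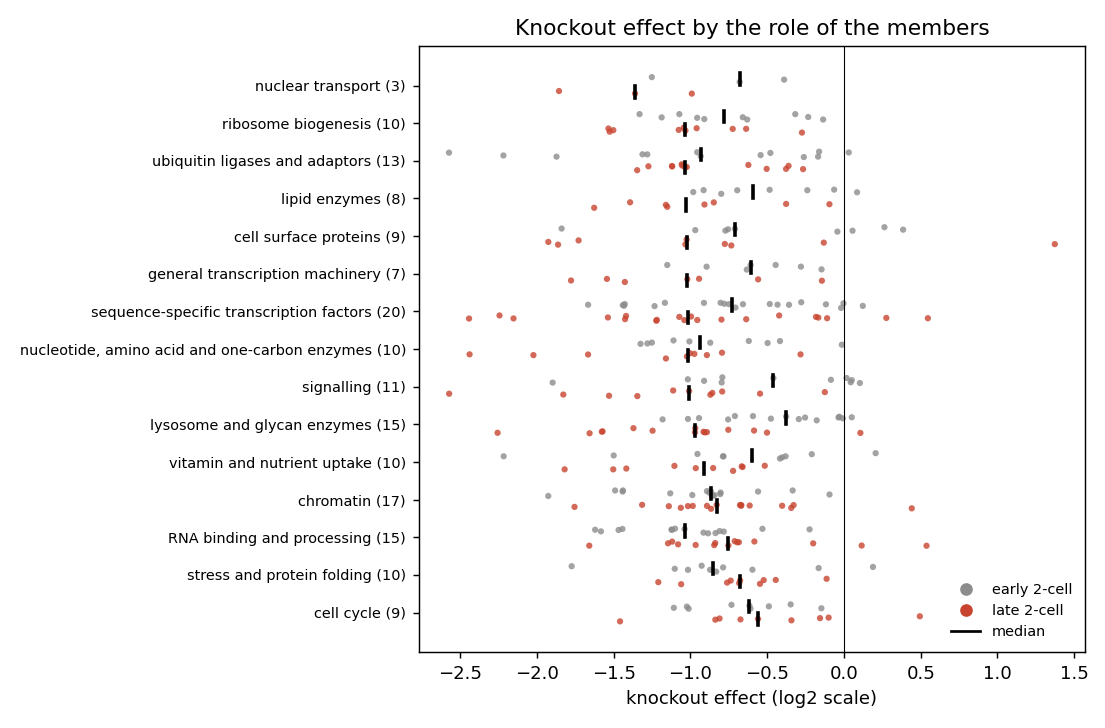
Knockout effect (knockout minus control, log2(FPKM + 1) scale) of each member by role, with early 2-cell in grey and late 2-cell in red. Each point is 1 member, black bars are medians, the number of members is in brackets and vertical scatter within a row only separates points. Medians lie below 0 for all 15 roles at both stages.

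Gene type, overlap and sequence sharing were compared as descriptions. Of 231 protein-coding members 166 fell and 4 rose, with a median effect of -0.92, and of 43 other members 16 fell and 1 rose, with a median of -0.59. Among the 146 members that overlap no other annotated gene, 90 fell, with a median of -0.81. Whether the authors' counting used the strand is not given, so levels of the 128 overlapping members are uncertain. Among members named in the text, Exoc3l2, Rbmx, Tet1 and Cdk9 overlap a gene on their own strand, and Hipk1, Tnpo3, Ctsl and Ipo7 overlap genes on both. On the other strand, Alppl2, Folr1, Btbd18, Slc19a3, Gtf3c5, Ctsc, Mgat2, Fbxo15, Slc34a2, Kpna1, Suv39h1, Dnajb9, Trim43c, Gabpa, Zbtb8a, Mak16, Znhit3, Tmem150c, Ddx54, E2f7, Impdh2, Gldc, Zfp367, B4galt3, Ctsz, Rrp9 and Jade1 overlap another gene. Among the 179 members with at most 10% shared words 126 fell, with a median of -0.91, and among the other 95 members 56 fell, with a median of -0.89. Within 200000 bases of another member lay 44 members, in 19 clusters. The largest held 8 predicted gene models on chromosome 11, from 60560924 to 60693075, of which 5 fell, with effects from -1.47 to -0.48.

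At the early 2-cell stage the members already differed between genotypes. In knockout E2C, 131 members fell and 0 rose by limma with Benjamini-Hochberg adjustment, against 7.28% lower and 6.2% higher over all 15184 genes tested, and 47.8% of members were called lower. Members could pass the filter through L2C, and 82 were under 1 FPKM in control E2C, so these shares are not strictly comparable. The fit of E2C alone, given below, filters on E2C libraries only. At an unadjusted p under 0.05 there were 177 members, counted in both directions, and this was not counted over all genes. The median effect was -0.75 over members and 0.00 over all genes tested. Every knockout library lay below every control library in 163 members, or 59.5%, against 15.1% of all genes tested, and above in 1, against 14.6%. The effect was below 0 in 250 members and above 0 in 23, against 49.5% and 49.8% of all genes tested. Among the 192 members with a control E2C mean of at least 1 FPKM, the median knockout level was 36.6% of control. E2C libraries varied more than those of other stages, with a median within-group SD over genes of 0.258 (log2 scale) against 0.111 to 0.206. When E2C was fitted alone, 69 of 192 members tested were lower, with 5.87% of all genes called lower and 4.25% higher, and 67 were among the 131. Without control E2C replicate 1, 82 members were lower, and without knockout E2C replicate 2, which had the lowest summed level, 84 were lower and 1 higher. With a pseudocount of 0.1 the count was 85. TPM scaling and median centring kept it within 1.5 times, although over all genes the E2C split of 941 higher and 1105 lower among 15184 genes was 1386 and 899 with median centring of the same genes. With TPM scaling it was 1373 and 909 among 19980 genes tested.

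Among named genes, the 3 members that fell most in knockout E2C were Fbxo15, Trim43b and Slc19a3. Fbxo15 was at 16.3, 17.5 and 14.0 FPKM in control and 2.44, 1.86 and 1.31 FPKM in knockout libraries, an effect of -2.57 (SE 0.26, limma, Benjamini-Hochberg adjusted p = 2.75e-06). All knockout values were below all control values by a wide gap. Trim43b was at 9.31, 2.98 and 6.59 FPKM in control and 1.18, 0.0753 and 0.317 FPKM in knockout libraries, with a wide spread in both groups but no overlap. Slc19a3 was at 10.5, 6.79 and 7.12 FPKM in control and 1.24, 0.328 and 1.43 FPKM in knockout libraries. Their effects were -2.22 each, and the adjusted p (limma, Benjamini-Hochberg) was 5.73e-05 for Trim43b and 1e-05 for Slc19a3. Hipk1 was at 4.13, 4.48 and 2.78 FPKM in control and 0.114, 0.404 and 0.311 FPKM in knockout libraries, so it was also called lower in E2C.

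Calls at the early and the late 2-cell stage were set side by side. Of the members, 87 were called lower at both stages, 95 in L2C only, 44 in E2C only and 48 at neither. These counts do not show a difference between stages. Nor do they show a link, since 66.4% of members were lower in L2C and 47.8% in E2C, which makes some overlap unavoidable. The same overlap was not counted over all genes. The difference between the effects was called lower in L2C than in E2C for 61 members and higher for 21, against 9.37% and 9.55% of all genes tested, and its median was -0.15 over members and 0.03 over all genes. The counts differed with the level already reached in control E2C. Of the 82 members under 1 FPKM there, 47 had a lower and 2 a higher effect in L2C, and of the 192 others 14 had a lower and 19 a higher effect. On the log2(FPKM + 1) scale a gene under 1 FPKM in control E2C can fall by little, and these 82 members passed the filter through L2C, so a lower effect there restates their fall in L2C. With a pseudocount of 0.1, 8 members had a lower and 9 a higher effect. Across the 274 members the effects in E2C and L2C had a Spearman correlation of -0.12, given as a description, since members share libraries. With only the stages compared in the fit, 43 members had a lower and 17 a higher effect, against 8.21% and 9.33% of all genes tested. Without control L2C replicate 2, 12 in place of 21 members had a higher effect.

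Among named genes, Stmn3, Fgf4 and Gata1 had the lowest values of this difference. Stmn3 was at 0.366, 0 and 0 FPKM in the control E2C libraries and 0 in all knockout ones, so no fall could be seen there. Fgf4 and Gata1 were under 0.3 FPKM in all E2C libraries. The differences of -2.63, -2.49 and -2.32 for these 3 genes therefore hold little beyond the L2C effect, and they are given without a test. Among named genes on the other side stood Rpp25, the splicing-related RNA-binding protein gene Rbmx, and Jade1, a subunit of a histone acetyltransferase complex. Rpp25 was at 5.404, 2.7035 and 3.94 FPKM in control and 0.877, 0.145 and 0.872 FPKM in knockout E2C, below all controls, whereas in L2C its knockout libraries were above all controls. Its difference of effects was 2.16 (SE 0.30, limma, Benjamini-Hochberg adjusted p = 3.44e-05). Rbmx was at 7.50, 8.44 and 6.12 FPKM in control and 2.12, 0.832 and 2.71 FPKM in knockout E2C, and at 26.7 and 29.5 against 39.7, 25.98 and 27.5 FPKM in L2C, where the groups overlapped. Jade1 was at 2.54, 4.15 and 5.21 FPKM against 2.43, 0.249 and 1.51 FPKM in E2C, and at 13.6 and 14.5 against 16.5, 19.3 and 22.98 FPKM in L2C. The differences were 1.70 for Rbmx and 1.57 for Jade1, and the calls of Stmn3, Gata1, Rbmx and Jade1 were lost with a pseudocount of 0.1.

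**Figure D5:**
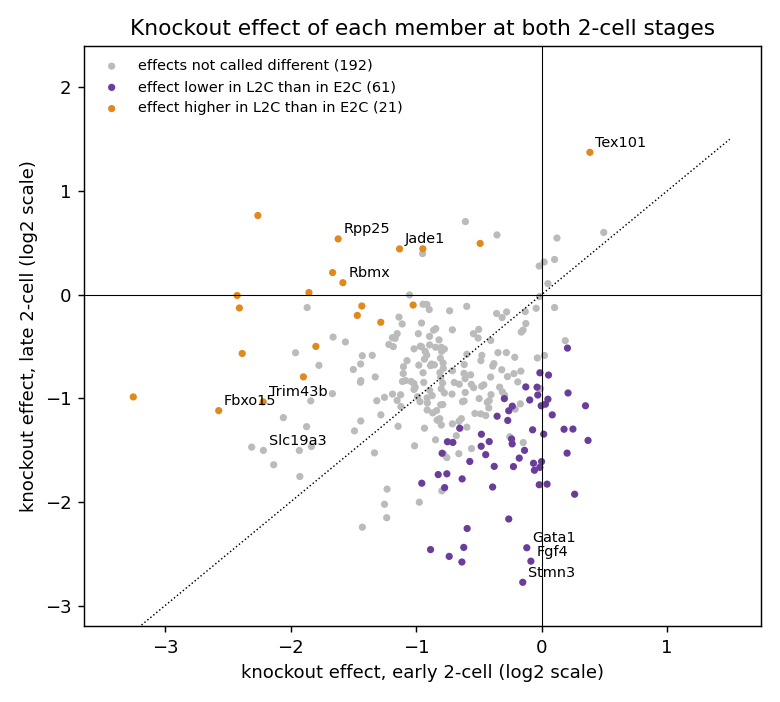
Knockout effect of each of the 274 members in early 2-cell (horizontal) and late 2-cell embryos (vertical), both on the log2(FPKM + 1) scale, with a dotted line of equal effects. Purple points (61) have a lower and orange points (21) a higher effect in L2C than in E2C by limma, and 192 are not called.

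At the earlier stages most members were too low for a difference to be seen: 63, 58 and 51 of the 274 had a control mean of at least 1 FPKM in FGO, MII and L1C. In knockout FGO 13 members were lower and 6 higher, in MII 20 and 4, and in L1C 18 and 7. Over all genes tested, 9.97% were lower and 3.91% higher in FGO, 10.2% and 6.57% in MII, and 10% and 7.6% in L1C. Most members entered these tests through L2C, so their counts cannot be read against those shares. With FGO fitted and filtered alone, 6 of 69 members tested were lower and 3 higher, or 8.7% and 4.35%, against 7% and 1.34% of all genes tested. With MII alone it was 6 and 1 of 61, or 9.84% and 1.64%, against 7.84% and 4.17%. With L1C alone it was 6 and 3 of 55, or 10.9% and 5.45%, against 8.71% and 6.22%. Without control FGO replicate 2 there were 7 lower and 3 higher members in FGO, and without control FGO replicate 1 or knockout FGO replicate 3 there was 1 higher. In MII, 13 were lower without control MII replicate 1 or knockout MII replicate 2, with 2 and 1 higher, and 1 was higher without control MII replicate 2. In L1C, 11 were lower without control L1C replicate 2, and 3 were higher without either control. Centring on library medians gave 12 lower and 10 higher members in MII, with 2187 genes higher and 1114 lower over all genes in place of 998 and 1547, in FGO it gave 1153 and 1032 in place of 593 and 1514, and in L1C 1521 and 1331 in place of 1154 and 1521.

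Those called at all 3 of these stages were 8 lower and 3 higher members. The same count was not made over all genes tested, so it shows nothing particular to the members. Dppa4 was at 4.83 and 5.24 FPKM in control FGO and 0.835, 0.842 and 1.26 FPKM in knockout FGO, and it stayed apart in the same direction in MII and L1C, with effects of -1.62, -1.53 and -1.37. Fbxo15 was at 3.49 and 3.36 FPKM in control and 0.480, 0.317 and 0.868 FPKM in knockout L1C, an effect of -1.53. Nicn1, a subunit of the tubulin polyglutamylase complex, was at 2.62 and 1.81 against 0.275, 0.758 and 0.509 FPKM in FGO. Rrp9, a component of the U3 small nucleolar ribonucleoprotein, was at 8.77 and 11.02 against 3.65, 4.52 and 4.13 FPKM in MII. Hipk1, the histone demethylase gene Kdm3a, the 5-methylcytosine oxidase gene Tet1 and Gm49064 were the other 4 lower members. Of the 8, 5 were also lower in knockout L2C, where 66.4% of all members were, and Gm49064 was called higher there.

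The 3 members higher in FGO, MII and L1C were Gldc, Tfrc and B4galt3, a galactosyltransferase. Gldc was at 0.117 and 0.260 FPKM in control FGO and 1.32, 1.18 and 1.19 FPKM in knockout FGO. The groups did not overlap, and the effect was 0.91 (SE 0.14, limma, Benjamini-Hochberg adjusted p = 5.88e-05). In L2C the order was the opposite, with Gldc at 26.6 and 27.1 FPKM in control and 5.53, 8.97 and 9.38 FPKM in knockout libraries. Tfrc was at 2.73 and 2.80 against 4.30, 4.71 and 5.62 FPKM in FGO, and it too was called lower in L2C. B4galt3 was at 0.668 and 1.24 against 1.88, 2.51 and 2.47 FPKM in MII, and in L2C it was at 21.2 and 13.8 FPKM, which was not called.

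At embryonic day 6.5 no member was called. In each of EPI and VE, 196 members were tested, and 0 were called higher or lower by limma with Benjamini-Hochberg adjustment, against 0% of all 13376 genes in EPI and, in VE, 0% higher and 0.00748% lower. At an unadjusted p under 0.05 there were 8 members in EPI and 6 in VE. This was not counted over all genes, so it shows nothing particular to the members. The median effect over members was 0.14 in EPI and 0.11 in VE, against 0.06 and 0.05 over all genes tested. Of the 196 members tested in EPI, every knockout library lay above every control library in 45, or 23%, and below in 16, or 8.16%, against 14.6% and 9.42% of all genes tested. In VE it was 33 above, or 16.8%, and 10 below, or 5.1%, against 14.3% and 9.81%. Fgf4 had the lowest unadjusted p in EPI, at 6.59 and 3.83 FPKM in control and 17.5 and 34.0 FPKM in knockout libraries, with an adjusted p of 1 (limma, Benjamini-Hochberg). Timd2, a cell surface receptor for ferritin, had the lowest in VE, at 1.70 and 6.78 FPKM in control and 14.7 and 23.9 FPKM in knockout libraries, also with an adjusted p of 1. In both genes the knockout libraries were above the control libraries, the opposite order to that in L2C, where Timd2 was at 49.6 and 45.9 against 17.5, 10.2 and 14.3 FPKM.

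Many members remained expressed at embryonic day 6.5, and 156 were at 1 FPKM or more in all 11 poly(A) libraries. Another 62 never reached 1 FPKM, of which 15 were listed at 0 throughout. These 62 included 38 of the 43 non-coding members and 24 of the 231 protein-coding ones, among them Alppl2, which did not exceed 0.19 FPKM in any of the 11 libraries. Since early libraries were made from total RNA and these from poly(A) RNA, levels are not compared between them. Of the 212 members that reached 1 FPKM, 85 were highest in EPI, 55 in VE and 72 in EXE. The same split was not counted over all genes, so it shows no lean particular to the members. The highest member by mean was Set in EPI, at 628 and 824 FPKM in control and 610.7 and 611 FPKM in knockout libraries. In VE and EXE it was Mt1, at 2911 and 5251 FPKM in control and 1272 and 4348 FPKM in knockout VE, with overlapping groups.

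In 26 members every library of 1 lineage was more than 2 times as high as any library of the others, with a mean of at least 5 FPKM. There were 13 such members in VE, 8 in EPI and 5 in EXE, of which 11, 7 and 3 had been lower in knockout L2C, where 66.4% of all members were. The same counts were not made over all genes, and EXE had fewer libraries than EPI or VE. They therefore show no lean toward a lineage that is particular to the members. Of the 13 in VE, 6 are lysosomal or glycan enzymes, a role given to 15 members. Ctsl was between 1192 and 2610 FPKM in VE and at most 130.1 FPKM elsewhere, Ctsz between 1969 and 2422 against at most 249.4 FPKM, and Npl between 110.4 and 361 against at most 1.67 FPKM. Folr1 was between 459 and 672 FPKM in VE and at most 107 FPKM elsewhere. Those of EPI included Zbtb8a, Rarg, a retinoic acid receptor, Kdm5b, a histone demethylase, and Fgf4. Those of EXE included Fbxo15 (10.5 to 24.3 FPKM, against at most 5.15 FPKM elsewhere) and Gata1 (8.45 to 13.9 FPKM, against at most 2.72 FPKM). EXE had 1 control library and was described without a test.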

How the data were processed

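The deposited tables hold FPKM per gene for 37 libraries, 26 from total RNA and 11 from poly(A) RNA. Per the submitters' processing notes the tools were Trim Galore 0.6.6, STAR 2.7.9 and StringTie 2.1.7 with the mm10 genome, and the values used here are the authors' FPKM as deposited, without read counts. The annotation, filters and use of strand are not given in the sources used here, and depth is unknown, since FPKM keeps no read numbers. The deposited control EPI replicate 1 column, otherwise FPKM, held 1 value below 0, which was set to 0. All columns were matched to samples.

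The members, gene lists and tests were chosen with earlier results of these data known. Role groups were made after the member names were seen, and 1 wrong symbol pattern was removed from the lists after the files were read. All 26 total RNA libraries were fitted together with limma 3.58.1 (R 4.3.3) on log2(FPKM + 1), with 1 variance weight per stage, a mean-variance trend and knockout minus control contrasts within stage. Genes needed at least 1 FPKM in 2 libraries, which all 274 members passed, partly through L2C itself. Adjusted p-values are Benjamini-Hochberg over all genes tested, called under 0.05. Fold changes on this scale understate the change of low genes. The 8 EPI and VE libraries were fitted apart. Stage weights were used because earlier work on these data found E2C libraries more spread, and each stage was also fitted alone. In simulated data 152 of 200 changed genes were recovered for L2C with 9 false calls, and 152 with 12 false calls for E2C. Without stage weights it was 170 with 43 false calls for L2C and 181 with 344 for E2C. Of 100 genes changed by 1 on the log2 scale, the weighted fit recovered 59 in L2C. The simulated spread differed by stage, as the weights assume, so this comparison favoured the weights in advance and cannot justify them. Tables were handled with Python 3.11.15, pandas 2.3.3 and numpy 2.4.6, and figures drawn with matplotlib 3.10.9.

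Genes were named by a rule: the 8 largest rises, up to 8 that fell or rose most in L2C and 3 in E2C among called, non-overlapping members, 3 each way for the difference between these stages, 2 of the highest per gene list, up to 2 each way in FGO, MII and L1C, and the lowest p and the highest level at embryonic day 6.5. Predicted and clone-named models were passed over. Members given beside a role group and those restricted to 1 lineage were added as examples after their values were seen. Promoter windows came from the RefSeq table for GRCm38.p6, in which 190 of 274 members were matched by symbol. Shared 50-base words were counted over exons of the GENCODE M21 annotation. Replicates were compared within each group, and no pair of libraries of the same group held identical values. Same-numbered libraries of the early stages had correlations of deviations from -0.077 to 0.142, so the numbers were not taken as pairs. In EPI and VE they were 0.593 and 0.429 over 2 pairs, which is too few to show pairing. Alternatives covered pseudocount, filters, scaling, weights, samples in the fit, a replicate block, the limit and libraries of the rule, and each library left out. The fit of single stages with a pseudocount of 0.1 was chosen after seeing the data.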

Additional observations from a re-analysis of the deposited data

Results flagged for a closer look

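The knockout effect was called different between the early and the late 2-cell stage for some members, by limma on the difference between the effects. It was lower in L2C for 61 members and higher for 21, or 22.3% and 7.66%, against 9.37% and 9.55% of all genes tested. Of the 61, 47 were under 1 FPKM in control E2C, where little fall is possible on this scale, and with a pseudocount of 0.1 the counts were 8 and 9. Among named genes the difference (L2C minus E2C, log2 scale) was -2.63 for Stmn3, -2.49 for Fgf4 and -2.32 for Gata1, all of which were near 0 FPKM in E2C of both genotypes, so these values mainly restate the fall in L2C. It was 2.16 for Rpp25, 1.70 for Rbmx and 1.57 for Jade1, which were lower in knockout E2C and not lower in knockout L2C.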

How the results depend on the processing

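Depth is unknown and limits low values, mainly in E2C, where 82 members were under 1 FPKM in control. Groups hold 2 or 3 libraries, so the count of calls moves with the estimate of spread. In each sentence that follows, counts are members lower or higher in the knockout, and the cause of a move was not tested.

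For L2C (182 lower, 5 higher), a pseudocount of 0.1 gave 85 lower and 0 higher, a mean of at least 5 FPKM 78 and 1 (fewer genes tested), TPM scaling 105 and 1, no filter 1 higher, and shorter and longer lists of ranks (181 and 370 members) 1 and 11 higher. Members chosen from control libraries alone, which favours genes low in the knockout, gave 1 higher and a median of -1.15. For E2C (131 lower, 0 higher), the same pseudocount gave 85 and 1 with a median of -1.23, the mean filter 79, E2C alone 69, E2C alone with that pseudocount 52 with a median of -1.41, and control-chosen members 83 and 1 with a median of -0.42. For the difference between stages (61 lower, 21 higher), the pseudocount gave 8 and 9, the mean filter 7 lower, TPM scaling 15 lower, control-chosen members 121 and 5, the shorter list 37 lower and the longer list 38 higher. For FGO (13 and 6), the mean filter gave 8 and 2, quantile normalization 7 lower, no stage weights 5 and 2, FGO alone 6 and 3, control-chosen members 7 lower and the shorter list 6 and 3. For MII (20 and 4), the pseudocount gave 9 higher, the mean filter 12 and 2, median centring 12 and 10, quantile normalization 10 and 9 (over all genes 1278 higher and 1235 lower), no stage weights 5 and 1, MII alone 6 and 1 and the shorter list 11 and 1. For L1C (18 and 7), the mean filter gave 4 higher, no stage weights 6 and 2, L1C alone 6 and 3 and the shorter list 9 and 3.

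A replicate block gave 152 lower and 3 higher in L2C, 92 lower in E2C, 8 and 4 in FGO, 16 and 5 in MII, 9 and 6 in L1C, 38 and 16 for the difference, and 0 in EPI and VE. In E2C, the stage with 3 such numbers, not every library correlated best with its own number.

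Leaving out 1 library at a time gave 149 to 186 lower and 1 to 5 higher in L2C (median -0.93 to -0.87), 82 to 131 and 0 to 1 in E2C (median -0.78 to -0.62), 42 to 61 and 12 to 28 for the difference, 7 to 15 and 1 to 7 in FGO, 13 to 21 and 1 to 5 in MII, 11 to 20 and 3 to 8 in L1C, and 0 in EPI and VE.

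Of 2246 alternative values for 66 results on named genes, 2115 kept direction and side of the threshold, 99 lost the call, 32 gained it and 0 reversed. E2f7, Rpp25, Depdc1a and Dnajb9 in L2C lost it most often.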
